A study of Drosophila melanogaster with 12 samples.

Results

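BEAF-32 was depleted by RNA interference in Drosophila melanogaster S2 cells, and the transcriptome of these cells was compared with that of untreated cells. The comparison used 6 of the 12 libraries of the study, 3 from cells given BEAF-32 dsRNA and 3 from untreated controls. The libraries were assigned to their groups by the treatment labels, and all 7377 genes that passed a filter on low counts were tested. S2 is a male embryonic line with hemocyte-like properties, and it takes up long dsRNA from the medium. The labels' protocols describe a first dose of 4 µg dsRNA per ml of culture, a second of 8 µg per ml when the cells were diluted anew 2 days on, and harvest after 2 more days. Control cells received no dsRNA, so a response to BEAF-32 loss and a response to dsRNA as such cannot be told apart in this comparison. The other libraries, 3 with row dsRNA and 3 with row and BEAF-32 dsRNA together (double RNAi), gave the same BEAF-32 knockdown on a row RNAi background. That second comparison shares no library with the first. Whether the 3 samples of a group came from separate cultures is not in the labels. P-values therefore cover only how these samples vary, and part of that may be technical. All groups came from 1 cell line.

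BEAF-32 (boundary element-associated factor) is a DNA-binding insulator protein that was first found on the scs' boundary beside a heat shock locus. It binds clusters of a short CGATA motif, most often near promoters of housekeeping genes and between closely spaced genes transcribed away from each other. It meets Chromator, Cp190 and the promoter factor Dref at many of these places, and fly domain boundaries are rich in it. Row (relative of woc) is a zinc finger protein that works with woc, HP1c and Ubqn, and the study's title puts it together with BEAF-32.

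Levels are given in CPM, which express a gene's raw count relative to its library's total after TMM normalisation (a scaling that limits the pull of a few abundant genes). Changes are log2 differences of BEAF-32 RNAi minus control, with a standard error (SE) from edgeR's quasi-likelihood test. Adjusted p-values are Benjamini-Hochberg values over all 7377 genes. The libraries came from 3′ ends of polyadenylated RNA, so a gene's level is a tag count with no length correction. Total counts ran from 2562346 to 3258226 in the 6 libraries, and between 8610 and 8838 genes had at least 1 count. Control replicate 1 and BEAF-32 RNAi replicate 3 lay at opposite ends of the first principal component (scores -28.9 and 29.6, 26.3% of the variance), and the other 4 libraries lay between -2.83 and 4.03. On the second component (20.8% of the variance) BEAF-32 RNAi replicate 1 scored -31.6, and the other libraries lay between -1.51 and 13.6. Without control replicate 1 and BEAF-32 RNAi replicate 3, 0 genes passed (432 at an unadjusted p under 0.05). Summed marker levels, and the single marker levels given with them, are counts relative to library totals without TMM. Hemocyte markers were abundant, with the plasmatocyte list summing to between 3434 and 3712 CPM in control and between 3359 and 3372 CPM in BEAF-32 RNAi. Of 10 germline and gonad markers, vas, tj and zpg had 0 counts in all 6 libraries and 6 were tested. Their summed level was 81.9 to 93.2 CPM in control and 80.4 to 86.2 CPM in BEAF-32 RNAi, most of it from aub (63.4 CPM), with AGO3 at 7.97 CPM and bam at 5.87 CPM. Of 8 fat body markers, 6 had 0 counts in these libraries.

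BEAF-32 RNA fell to 36.7% of the control level. Its level was 66.0, 42.8 and 62.9 CPM in the control libraries and 23.4, 24.7 and 14.9 CPM in the knockdown libraries. Every knockdown library was below every control library. The log2 change was -1.44 (SE 0.22, 95% interval -1.89 to -0.99, adjusted p = 1.77e-04 in edgeR's quasi-likelihood test), and no other gene had a smaller p. The dsRNA itself was not part of any label, so whether the counted 3′ end lay outside the targeted stretch is not known. Leaving out any single library of the 6 gave changes from -1.24 to -1.61, all past the threshold. Without control replicate 1 and BEAF-32 RNAi replicate 3 together it was -1.13 with adjusted p = 0.145.

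The same dsRNA on the row RNAi background left 50.6% of the BEAF-32 level. The libraries with row dsRNA alone had 50.9, 62.0 and 64.6 CPM, and those with both dsRNAs had 26.1, 33.3 and 30.4 CPM. Here too the groups did not overlap. The log2 change was -0.98 (95% interval -1.41 to -0.55, unadjusted p = 2.86e-05), which missed the threshold after adjustment (adjusted p = 0.211 by edgeR). The interaction, which is the difference between the 2 changes, was 0.46 (unadjusted p = 0.144 by edgeR). The knockdown was therefore incomplete in both settings, with between 14.9 and 33.3 CPM of BEAF-32 RNA left per library.

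The genes around BEAF-32 did not pass the test. CR42254, an antisense RNA annotated across the BEAF-32 gene on the other strand, stood at 14.0, 13.4 and 14.3 CPM in control and at 10.7, 7.49 and 6.94 CPM in BEAF-32 RNAi. These groups did not overlap, and the log2 difference was -0.73 (95% interval -1.53 to 0.06, adjusted p = 0.929 by edgeR). How the counting treated strand is not stated in the labels or notes, so reads of BEAF-32 and of CR42254 may not be fully separated. Spred, a negative regulator of receptor tyrosine kinase signalling, lies 1045 bases away and differed by -0.15 (95% interval -0.55 to 0.25). On the other side lies kn (collier), a transcription factor known in fly blood for lamellocyte formation, at a gap of 19 bases. It had 11 counts in all over the 6 libraries, too few to show a change of ordinary size.

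CG4210 was the only other gene that passed, and it fell by about as much as BEAF-32 itself. CG4210 lies on chromosome arm 3R, and its table entry carries no descriptive name. It had 35.7, 37.5 and 52.1 CPM in control and 12.7, 21.5 and 9.37 CPM in BEAF-32 RNAi. Every knockdown library was below every control library, and 34.8% of the control level was left. The log2 change was -1.51 (SE 0.28, 95% interval -2.07 to -0.95, adjusted p = 0.00525 in edgeR's quasi-likelihood test). The call was lost without BEAF-32 RNAi replicate 1 (adjusted p = 0.0776), without BEAF-32 RNAi replicate 3 (adjusted p = 0.153) and without control replicate 3 (adjusted p = 0.348), while the change was between -1.27 and -1.42 in these fits.

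CG4210 was also lower when BEAF-32 dsRNA was added to row dsRNA. Its level was 39.3, 24.8 and 34.3 CPM with row dsRNA alone and 24.4, 19.4 and 14.1 CPM with both. The groups did not overlap, though the lowest row library and the highest double library were nearly level. The log2 difference was -0.79 (95% interval -1.35 to -0.24, unadjusted p = 0.00596, adjusted p = 0.624 by edgeR). The interaction for CG4210 was 0.72 (unadjusted p = 0.0746 by edgeR), so a smaller change on the row RNAi background was not shown.

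CG4210 overlaps SIDL, a gene on the opposite strand, and lies 315 bases from the oppositely transcribed CG6654. SIDL had 31.5, 29.4 and 27.1 CPM in control and 31.8, 13.7 and 30.5 CPM in BEAF-32 RNAi, and the groups overlapped. Its log2 difference was -0.22 (95% interval -0.75 to 0.31), and it was 0.09 without BEAF-32 RNAi replicate 2. CG6654 differed by 0.06 and CG12241, the next gene on the other side at a gap of 4410 bases, by -0.08. Of the 4 genes at this place, CG4210 alone passed the test, and the differences between neighbours were not tested.

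**Figure D1:**
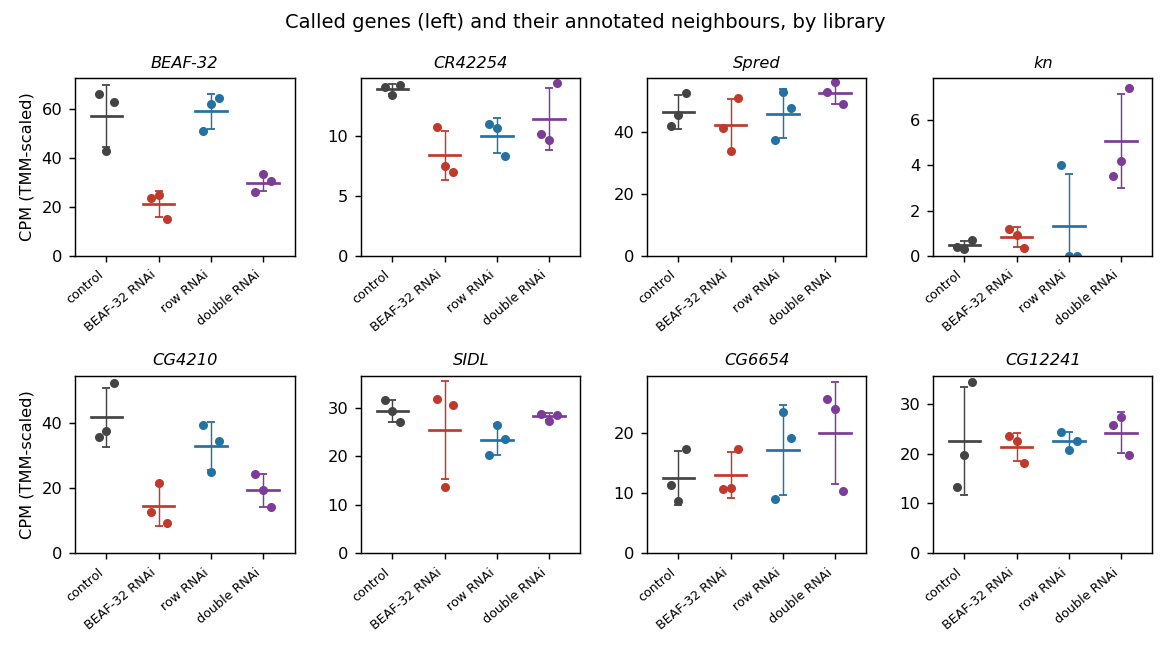
Level in CPM (y axis, from 0) of BEAF-32, CG4210 and their annotated neighbours, with 1 point per library, groups on the x axis, horizontal lines for group means and whiskers for 1 SD. BEAF-32 and CG4210 are lower in all 3 BEAF-32 RNAi libraries than in any control library, and lower in double RNAi than in row RNAi, whereas the points of Spred and SIDL overlap between BEAF-32 RNAi and control.

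Across the transcriptome, 2 of 7377 genes passed (0.0271%), both lower, and 0 were higher (0.0%). DESeq2 and limma-voom also called 2 genes each. At an unadjusted p under 0.05, 185 genes were higher (2.51%) and 197 lower (2.67%), which is 5.18% of the genes tested. The groups did not overlap for 348 genes on the higher side (4.72%) and 406 on the lower side (5.5%), 10.2% in all. The median log2 difference over all tested genes was -0.00066, and the 5th and 95th percentiles were -0.55 and 0.57. Genes above and below 0 were about equal in number, at 3682 and 3695.

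The intervals show what size of change the 6 libraries could bound. Of 2554 genes with a mean of at least 50 CPM, 2285 (89.5%) had a 95% interval that lay wholly within a 1.5-fold change in either direction, and 2544 (99.6%) within a 2-fold change. Over all tested genes the shares were 40.6% and 71.9%. Genes under 10 CPM therefore carry little information on changes of less than 2-fold. The share with an unadjusted p under 0.05 was 6.47% among genes of 50 to 200 CPM, 5.15% among those of 10 to 50 CPM and 3.14% among those of 200 CPM or more.

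**Figure D2:**
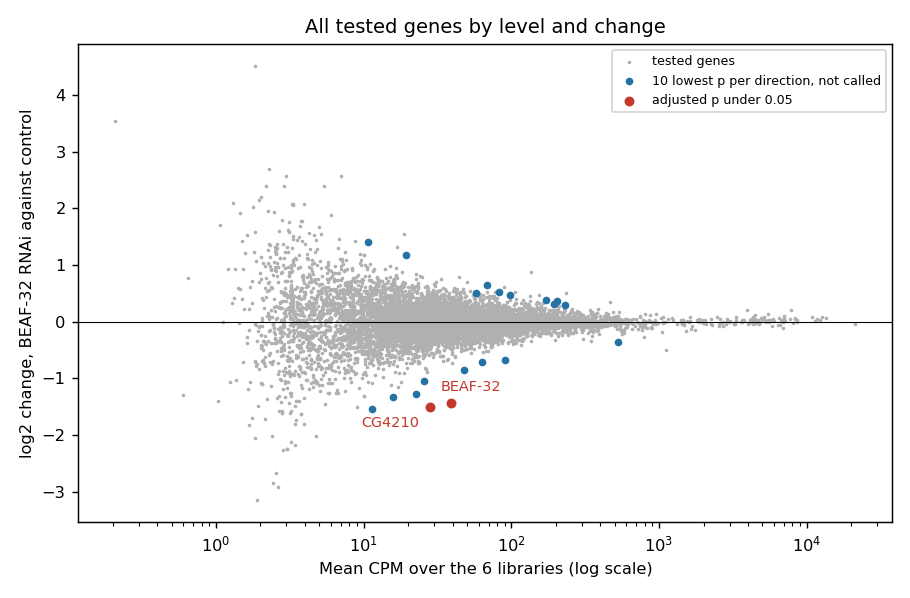
Log2 difference of BEAF-32 RNAi minus control (y axis) against the mean CPM over the 6 libraries (x axis, log scale) for the 7377 tested genes, with 1 point per gene, the 2 passing genes in red and the other named genes with the smallest p in blue. BEAF-32 and CG4210 stand below the cloud at the middle of the expression range, and the cloud is centred on 0 and widens toward low levels.

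Below the threshold, the genes that led the lower side were named by a rule: smallest unadjusted p among genes with a mean of at least 10 CPM and groups that do not overlap. Beside BEAF-32 and CG4210 these were CG14523, CG2200, fat-spondin, CG8500, CG11790, CG14527, CR43958 and msta, with adjusted p from 0.18 to 0.382 by edgeR. The non-overlap is part of the rule and is not a finding.

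CG14523 and CG14527 are now named Nepl19 and Nepl20, for neprilysin-like proteins, a family of membrane-bound and secreted zinc metallopeptidases. CG14523 stood at 121, 91.5 and 122 CPM in control and at 53.7, 75.9 and 78.1 CPM in BEAF-32 RNAi, a log2 difference of -0.68 (SE 0.16, adjusted p = 0.18 by edgeR). With row dsRNA alone it had 61.6, 54.1 and 68.0 CPM, also below every control library, though row RNAi against control was not tested. Adding BEAF-32 dsRNA to row dsRNA gave a log2 difference of -0.14 (unadjusted p = 0.396 by edgeR). CG14527 stood at 34.5, 22.8 and 38.9 CPM in control and at 9.54, 14.4 and 15.6 CPM in BEAF-32 RNAi, a log2 difference of -1.27 (SE 0.32, adjusted p = 0.199 by edgeR). Its mean was 19.0 CPM with row dsRNA alone and 32.1 CPM in control, groups that overlapped. Both overlap CG33203 in the annotation, so part of their counts is uncertain. The same limit holds for most genes named by this rule. Of the 10 on the lower side 8 overlap another annotated gene or element, and of the 10 on the higher side, given further below, 7 do. On the same strand, CG14523 overlaps CG33203, CR43958 overlaps Tdg, Nmdmc overlaps Rel and pigs overlaps CG14443. SPoCk and lds also overlap annotated noncoding RNAs or elements on the same strand.

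Fat-spondin, an extracellular protein with spondin-type domains, was the most abundant gene of this group. It had 652, 504 and 612 CPM in control and 456, 486 and 429 CPM in BEAF-32 RNAi, with a log2 difference of -0.37 (SE 0.09, adjusted p = 0.191 by edgeR). Control replicate 2 was the control library nearest to the knockdown libraries. Without it, fat-spondin passed (adjusted p = 0.0196) and so did CG14523 (adjusted p = 0.0416).

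CG2200 had 83.1, 77.5 and 76.1 CPM in control and 53.7, 50.9 and 39.6 CPM in BEAF-32 RNAi (log2 difference -0.72, SE 0.17). CG11790 had 66.8, 60.0 and 57.7 CPM against 42.1, 36.8 and 23.3 CPM (-0.85, SE 0.21). CG8500 had 34.9, 27.8 and 40.7 CPM against 21.1, 17.8 and 11.5 CPM (-1.04, SE 0.26). For each of these genes BEAF-32 RNAi replicate 3 was the lowest of the 6 libraries. The same held for CR43958, a long noncoding RNA on chromosome 4, with 17.5, 16.2 and 17.0 CPM against 8.74, 5.62 and 3.12 CPM (-1.54, SE 0.42). It also held for msta, now SmydA-8, a SET and MYND domain protein, with 23.5, 21.9 and 21.9 CPM against 12.3, 9.99 and 4.51 CPM (-1.33, SE 0.37).

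On the higher side no gene passed, and the 10 genes named by the same rule had adjusted p from 0.307 to 0.837 by edgeR. AOX1, an aldehyde oxidase, led with 43.3, 59.0 and 57.0 CPM in control and 64.8, 84.9 and 99.6 CPM in BEAF-32 RNAi (log2 difference 0.65, SE 0.17). SPoCk, the calcium pump of the secretory pathway, had 62.3, 67.2 and 71.9 CPM against 93.8, 101 and 95.4 CPM (0.53, SE 0.15). The libraries within each group lay close together for SPoCk, with a gap between the groups larger than the range of either.

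CG43886 had 17.5, 5.93 and 12.2 CPM against 27.0, 25.3 and 27.4 CPM (1.18, SE 0.34). Nmdmc, a mitochondrial enzyme of folate metabolism, differed by 0.47 (SE 0.14) and Tango14, found in a screen for Golgi organisation, by 0.36 (SE 0.11). CG7692 had 3.42, 5.62 and 8.34 CPM against 19.9, 17.2 and 9.37 CPM (1.40, SE 0.44), the largest difference of the 10, with a control and a knockdown library about 1 CPM apart. The remaining 4 were lds (lodestar, a nuclear ATPase of transcription termination) at 0.50, drongo (an ArfGAP protein) at 0.39, pigs (a Gas2-type cytoskeletal linker) at 0.30 and CG8397 (now EMC7, of the endoplasmic reticulum membrane complex) at 0.30.

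The row RNAi background gave a second reading of these 20 genes in other libraries. There, edgeR, DESeq2 and limma-voom each called 0 genes (0.0%), while in edgeR 458 genes had an unadjusted p under 0.05 (6.21%). Of the 10 lower genes, 8 also had a negative difference, against 50.2% of all tested genes. Their median was -0.40, compared with -1.16 in BEAF-32 RNAi against control. BEAF-32, CG4210, CG2200, fat-spondin, CG11790 and CG14527 had an unadjusted p under 0.05 in the same direction, 6 of 10 against 3.35% of all genes. Their adjusted p in that comparison was 0.211 or more. BEAF-32 is the dsRNA target in both comparisons, so its place in these counts is not a finding. Both comparisons also take a gene's spread from the same fit of all 12 libraries. Their p-values are therefore not independent, and the share of all genes is only a rough measure beside genes chosen for a small p.

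CG14527 had 27.3, 15.9 and 13.9 CPM with row dsRNA alone and 6.20, 13.0 and 12.0 CPM with both dsRNAs, a log2 difference of -0.85 (unadjusted p = 0.0146 by edgeR). CG2200 had 71.6, 64.5 and 80.6 CPM against 62.0, 42.1 and 52.99 CPM, a log2 difference of -0.47 (unadjusted p = 0.00903 by edgeR). The groups did not overlap for either gene, nor for CG4210 and the dsRNA target BEAF-32, 4 of the 10. Of all genes, 6.32% had groups that did not overlap on the lower side (5.84% on the higher side). CG8500 went the other way, with 26.0, 30.3 and 26.6 CPM against 29.2, 37.9 and 35.7 CPM, a log2 difference of 0.32. Its interaction was 1.36 (unadjusted p = 3.78e-04, adjusted p = 0.929 by edgeR), so a difference between the settings was not shown after adjustment. CR43958 differed by 0.06 and msta by -0.33 on the row RNAi background.

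The 10 higher genes as a set differed little between double RNAi and row RNAi. Of these, 8 had a positive difference, against 49.8% of all genes, but the median was 0.07 compared with 0.48 in BEAF-32 RNAi against control. None of the 10 had an unadjusted p under 0.05 there, where 2.86% of all genes did. AOX1 differed by 0.13, SPoCk by -0.01 and CG7692 by -0.56. With row dsRNA alone, SPoCk already had 85.2, 81.3 and 86.5 CPM and AOX1 79.2, 74.8 and 65.2 CPM, above every control library. Of the 10 genes, all but CG43886 had a higher mean in row RNAi than in control, a difference that was not tested. A value near 0 between double RNAi and row RNAi therefore does not show whether a rise over control recurred. Between the settings (interaction), edgeR, DESeq2 and limma-voom each called 0 genes. With edgeR, 326 genes (4.42%) had an unadjusted p under 0.05.

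**Figure D3:**
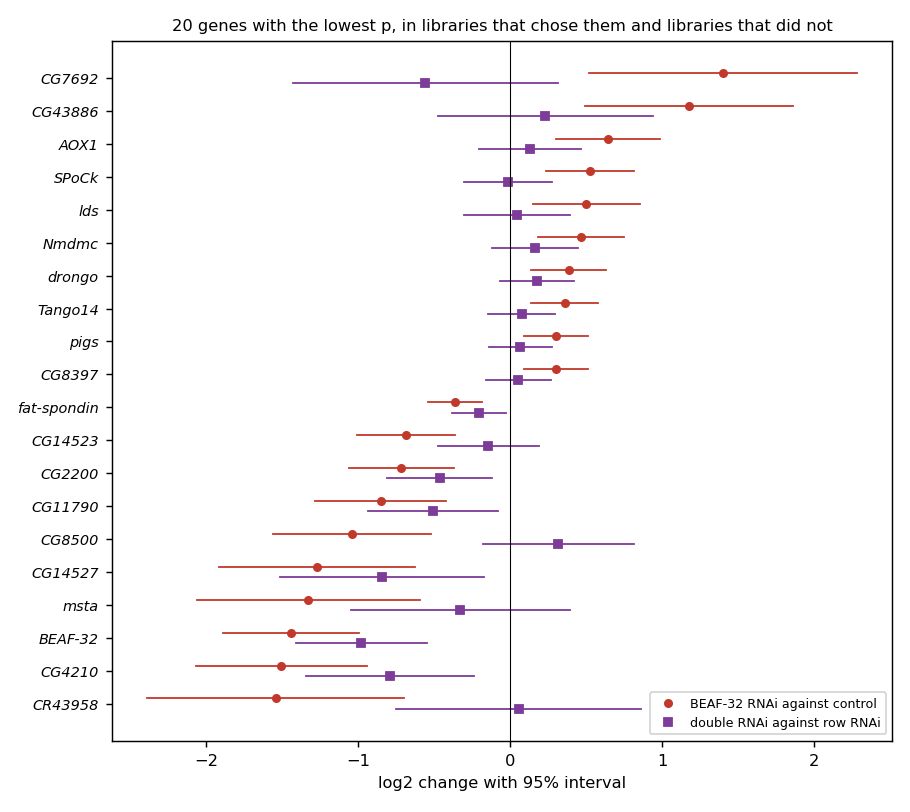
Log2 difference (x axis) with its 95% interval for the 10 named genes on each side, in BEAF-32 RNAi against control (red circles) and in double RNAi against row RNAi (purple squares). On the row RNAi background 8 of the 10 lower genes, the dsRNA target BEAF-32 among them, have a negative estimate. The estimates of the higher genes have a median of 0.07.

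Over all tested genes, the differences in the 2 readings of BEAF-32 dsRNA correlated with Pearson's r = 0.0794 and Spearman's rho = 0.085 across 7377 genes, which share libraries and depth, and 54.0% had the same sign. Among the 2554 genes of at least 50 CPM, r was 0.235 and 57.1% had the same sign. Of the 197 genes on the lower side at an unadjusted p under 0.05, 18 also had it in the same direction on the row RNAi background and 6 in the opposite direction. The 18 include BEAF-32 itself, and the p-values of both comparisons use each gene's spread from the same fit. Over all genes 3.35% had an unadjusted p under 0.05 on the lower side there and 2.86% on the higher side. For the 185 genes on the higher side these numbers were 8 in the same direction and 1 in the opposite direction.

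Insulator proteins and partners of BEAF-32 form the group closest to the depleted protein. None of the 21 tested members passed, and 10 lay above and 11 below 0 with a median log2 difference of -0.03. Cp190, which joins several insulator proteins, differed by 0.09 (SE 0.18), Chro (Chromator) by 0.13 (SE 0.15), CTCF by -0.03 (SE 0.35), su(Hw) by 0.08 (SE 0.19) and Dref by 0.01 (SE 0.19). These 5 were named for their roles, outside the rule. An unadjusted p under 0.05 was found for pzg (putzig, a Dref partner), with 136, 128 and 134 CPM in control and 112, 119 and 87.8 CPM in BEAF-32 RNAi (log2 difference -0.32, SE 0.14). The same was found for Nelf-E, a subunit of the pausing factor NELF (-0.66, SE 0.29). The groups of both genes did not overlap, on the lower side, where 5.5% of all genes do so.

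Row and its HP1-linked partners were all below 0, 8 of 8, with a median of -0.10, and none passed or had an unadjusted p under 0.05. Against the control mean, the list median was 0.01, -0.14 and -0.33 in BEAF-32 RNAi replicates 1, 2 and 3. In control replicates 1, 2 and 3 it was 0.06, -0.09 and 0.03. BEAF-32 RNAi replicate 1 was thus at the control level, and replicate 3 was the lowest. The gene row had 52.4, 47.2 and 52.5 CPM in control and 41.3, 37.2 and 47.2 CPM in BEAF-32 RNAi, groups that just met. Its log2 difference was -0.27 (95% interval -0.70 to 0.15). HP1b differed by -0.30 (SE 0.20), HP1c by -0.22 (SE 0.21) and the HP1a gene by -0.14 (SE 0.10). HP1c was 0.09 without control replicate 1 and BEAF-32 RNAi replicate 3. On the row RNAi background 5 of the 8 were above 0 with a median of 0.04, and HP1c stood at -0.70 (unadjusted p = 0.00128 by edgeR).

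In the Polycomb and trithorax group, 10 of 21 tested members were above 0 and the median was -0.02. Su(z)12, a core subunit of Polycomb repressive complex 2, had 46.7, 45.6 and 44.5 CPM in control and 25.4, 25.3 and 36.1 CPM in BEAF-32 RNAi (log2 difference -0.65, SE 0.23, adjusted p = 0.837 by edgeR). It was the 1 member of 21 with an unadjusted p under 0.05, on the lower side, where 2.67% of all genes had it. It was also the 1 member whose groups did not overlap, against 5.5% of all genes on that side. A count of 1 in 21 is near the background. The difference for Su(z)12 on the row RNAi background was 0.05. Cohesin, condensin and topoisomerase genes had a median of -0.05 with 7 of 16 above 0. Of 7 dosage compensation genes, 5 were above 0, and msl-3, a subunit of the male-specific lethal complex, differed by -1.06 (SE 0.44), with 9.49, 13.1 and 20.5 CPM in control and 6.76, 9.99 and 3.82 CPM in BEAF-32 RNAi, groups that overlapped. On the row RNAi background msl-3 stood at 0.85, with 7.99, 4.14 and 7.72 CPM in row RNAi and 10.2, 15.2 and 10.8 CPM in double RNAi, and its interaction was 1.91 (unadjusted p = 0.00332, adjusted p = 0.9995 by edgeR).

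Cell cycle genes lay more often below than above 0, by small amounts. Such a lean was not particular to them. Of 33 proteasome genes 25 were below 0, and of 82 cytoplasmic ribosomal protein genes 57 were above 0. Of 42 DNA replication genes 32 were below 0 (median -0.10), and of 33 mitosis genes 22 were (median -0.13), whereas 3695 of 7377 genes were below 0 overall. Without BEAF-32 RNAi replicate 3 the mitosis median was -0.04. None of these genes passed. In the replication list 0 members were on the higher side and 2 on the lower side at an unadjusted p under 0.05, against 2.51% and 2.67% of all genes, so 2 of 42 is near the background. These were DNApol-delta (now PolD1; -0.33, SE 0.15) and DNApol-alpha180 (now PolA1; -0.44, SE 0.22), catalytic subunits of replicative polymerases. In the mitosis list of 33 the numbers were 0 and 3, against the same 2.51% and 2.67%. CycA, a mitotic cyclin, had 108, 79.0 and 105 CPM against 83.1, 83.7 and 63.2 CPM (-0.34, SE 0.16), with overlapping groups. CycB3, another mitotic cyclin, differed by -0.58 (SE 0.27) and aurB, the kinase of the chromosomal passenger complex, by -0.35 (SE 0.15). On the row RNAi background the medians of the lists were -0.04 and -0.07.

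Marker genes of blood cell types describe the state of the line. The 19 tested plasmatocyte markers were split, 9 above and 10 below 0, with a median of -0.02. Among them vkg and Cg25C (now Col4a1), which encode type IV collagen chains, differed by -0.32 (SE 0.15) and -0.27 (SE 0.13), and Pxn (peroxidasin) by -0.16 (SE 0.08). Tig (tiggrin, an extracellular integrin ligand) differed by 0.24 (SE 0.12), and the members ranged up to 0.92. The 6 tested lamellocyte markers, genes of the large flat cells that encapsulate parasites, were all above 0 with a median of 0.34, and 2 of them had an unadjusted p under 0.05 on the higher side, where 2.51% of all genes did. cher (filamin) had 163, 166 and 184 CPM in control and 193, 209 and 235 CPM in BEAF-32 RNAi, groups that did not overlap (0.31, SE 0.11, adjusted p = 0.837 by edgeR). shot, a spectraplakin that links actin and microtubules, had 115.4, 134 and 101 CPM against 145, 132 and 175 CPM (0.37, SE 0.13). Mmp1, a matrix metalloproteinase, differed by 0.68 (SE 0.38) and PPO3, a prophenoloxidase of lamellocytes, by 0.41 (SE 0.23). The other members, the kinase msn (SE 0.11) and the integrin subunit mys (SE 0.12), each differed by 0.01. The summed lamellocyte level, relative to library totals without TMM, was 654 to 692.4 CPM in control and 692.7 to 818 CPM in BEAF-32 RNAi. The nearest libraries of the groups were thus about level. The defining marker atilla had 0 counts in all 6 libraries. Against the control mean, the list median was 0.24, 0.21 and 0.50 in BEAF-32 RNAi replicates 1, 2 and 3. On the row RNAi background it was 0.02 with 3 of 6 genes above 0. With row dsRNA alone, the means of cher, shot, Mmp1 and PPO3 were 203, 157, 19.8 and 46.1 CPM. In control they were 171, 117, 7.53 and 26.0 CPM, a difference that was not tested. Levels of msn and mys in row RNAi are not given here. The 0.02 therefore does not show whether a rise over control recurred.

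The lists for dsRNA handling, stress and signalling gave no call. Of 13 RNA interference genes 8 were above 0, with a median of 0.03. Dcr-2, the Dicer that processes long dsRNA, differed by 0.25 (SE 0.20) and Dcr-1, the Dicer of the miRNA pathway, by -0.90 (SE 0.34). Dcr-1 stood at 28.1, 24.4 and 15.3 CPM in control and at 15.1, 6.87 and 14.6 CPM in BEAF-32 RNAi, and control replicate 3 lay close to the knockdown libraries. Of 20 Toll and Imd genes 14 were above 0 (median 0.10). CecA1, an antimicrobial cecropin, had 1.52, 0.62 and 0.35 CPM against 6.36, 0.31 and 8.68 CPM, so BEAF-32 RNAi replicate 2 stayed at the control level. It had 0.33, 0.69 and 2.47 CPM in row RNAi and 3.10, 5.47 and 2.64 CPM in double RNAi. That log2 difference was 1.60 (unadjusted p = 0.0999 by edgeR). These groups did not overlap, as for 5.84% of all genes on the higher side. Counts of CecA1 were low, from 1 to 25 per library.

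The median was 0.04 for 12 heat shock genes, 0.04 for 14 JNK pathway genes, -0.03 for 9 JAK/STAT genes, -0.03 for 15 Hippo pathway genes and -0.04 for 15 apoptosis genes. In the apoptosis list, hid, an inducer of cell death, had 12.9, 13.4 and 6.95 CPM against 5.56, 3.43 and 6.94 CPM (-1.07, SE 0.43), and the initiator caspase Dronc differed by 0.60 (SE 0.29) with its adaptor Dark at 0.46 (SE 0.22). wts (warts), the Hippo pathway kinase, differed by -0.19 (SE 0.19). Hex-A, a hexokinase at the entry of glycolysis, had 137, 128 and 130.3 CPM in control and 102, 105 and 89.5 CPM in BEAF-32 RNAi (-0.41, SE 0.14, adjusted p = 0.776 by edgeR), groups that did not overlap. Its list, hypoxia and glycolysis, had 10 of 16 genes above 0 and a median of 0.03. The 11 ecdysone response genes had a median of 0.05 and the 16 genes of the unfolded protein and integrated stress response 0.04. Of 24 actin cytoskeleton genes 8 were above 0, with a median of -0.02.

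Lists of housekeeping genes, near whose promoters BEAF-32 is known to bind, had small medians. The 82 tested cytoplasmic ribosomal protein genes had a median log2 difference of 0.02 and ranged from -0.20 to 0.20. Their share of all counts was 42.0%, 39.7% and 39.9% in control and 41.5%, 41.3% and 40.6% in BEAF-32 RNAi. Mitochondrial ribosomal protein genes (73) had a median of -0.03 and a wider range, from -0.45 to 0.49. Respiratory chain genes (62) had a median of 0.03 and proteasome genes (33) of -0.07, with Rpt4, a proteasome ATPase, at -0.26 (SE 0.11). On the row RNAi background the medians of the cytoplasmic ribosomal, respiratory and proteasome lists were -0.09, -0.08 and -0.11. There 75 of 82, 49 of 62 and 27 of 33 of their genes were below 0.

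**Figure D4:**
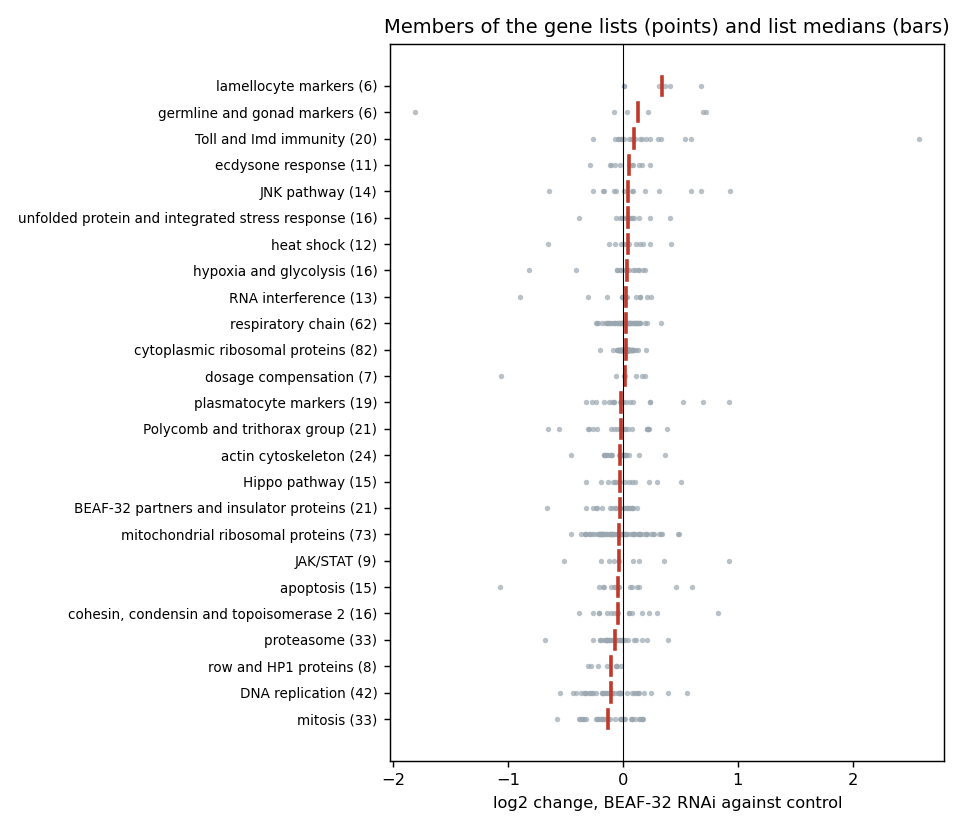
Log2 difference of BEAF-32 RNAi minus control (x axis) for the tested members of each gene list, with 1 grey point per gene, a red bar at the list median and the number of tested genes in parentheses. The medians run from -0.13 for mitosis to 0.34 for the 6 lamellocyte markers, while single members such as CecA1 at 2.58 lie farther out; lists with fewer than 6 tested genes are not drawn.

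Genome position was examined because BEAF-32 marks boundaries and divergent promoters. The 2 genes beside the scs' boundary showed no call, with aurA, a mitotic kinase, at -0.23 (SE 0.18) and CG3281 at 0.20 (SE 0.50). Of 3539 tested genes whose annotated start lay within 1 kb of an oppositely transcribed start, 4.24% had an unadjusted p under 0.05 and 9.24% had groups that did not overlap. Among the 3492 other protein-coding genes the shares were 5.87% and 10.9%. The medians of the 2 classes were -0.0021 and -0.0012. CG4210 belongs to the first class and BEAF-32 to the second. BEAF-32 is transcribed away from Spred, on the other strand at a gap of 1045 bases, and so only just misses the 1 kb limit. In 1503 divergent pairs with both genes tested, the 2 genes had the same sign in 735 pairs (48.9%), and both had an unadjusted p under 0.05 in 3 pairs. By chromosome arm the medians lay between -0.01 on X, which holds 1258 tested genes, and 0.02 on the small chromosome 4 with 60. The 2 passing genes lie on 2R and 3R.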

How the data were processed

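The labels' protocols give 100 ng of total RNA as input and oligo-dT primers with an 8-base molecular identifier. STAR and the build dm3 are named in the submitters' processing notes. Not given in the sources used here are the annotation, the counting step, its strand setting and whether identifiers were collapsed. The authors deposited raw counts per gene for 16718 genes, of which 5628 were at 0 in all 12 libraries. No entry of the table was a summary row.

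The analysis used edgeR 4.0.16 under R 4.3.3. Genes were kept by filterByExpr (minimum count 10), scaled by TMM and fitted by robust quasi-likelihood, all 12 libraries in 4 groups, without a block, with 8 residual degrees of freedom. The tested genes held at least 99.8% of each library's counts, and 9341 genes were not tested. Calls were made at a Benjamini-Hochberg adjusted p under 0.05 over 7377 genes. SE is the absolute log2 change over the square root of F. Alternatives were DESeq2 1.42.0, limma-voom of limma 3.58.1, other scalings and filters, only the groups compared, a replicate block and leaving libraries out. The scripts were tested on simulated counts.

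Names and neighbours are from the BDGP6.54 annotation, which matched 16576 symbols. It is another build than dm3, so no coordinates are given. Named genes were taken by rule: BEAF-32 and row, the passing genes and their neighbours, per direction the 10 smallest p and the 4 largest changes among genes of at least 10 CPM with groups that do not overlap, and up to 4 members per list. The gene lists (31), the rule and the comparison were chosen with earlier results of these data known. The list of mitochondrially encoded genes matched 0 symbols, and 0 fat body markers passed the filter.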

Additional observations from a re-analysis of the deposited data

How the results depend on the processing

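In BEAF-32 RNAi against control, leaving out 1 library at a time gave between 1 and 4 passing genes. There was 1 passing gene without BEAF-32 RNAi replicate 1, without BEAF-32 RNAi replicate 3 or without control replicate 3, and 4 without control replicate 2. The setting without control replicate 1 and BEAF-32 RNAi replicate 3 together was chosen after seeing the data; it gave 0 genes and a BEAF-32 change of -1.13. In double RNAi against row RNAi, 3 genes passed with no filter on low counts (BEAF-32, He and SPARC), 2 with only the groups compared (BEAF-32 and CR43264), and between 0 and 2 when 1 library was left out. The correlation between the 2 readings of BEAF-32 dsRNA was 0.003 with no filter, and ran from 0.035 to 0.095 when 1 library was left out.

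The counts did not settle whether replicate numbers pair the samples. Deviations of same-numbered libraries correlated weakly, between -0.03 and 0.06, yet 7 of 12 libraries correlated best with their own number. With the replicate number as a block, 2 genes passed and BEAF-32 changed by -1.44. Of 1950 recomputed values for 131 single genes other than BEAF-32, 1923 kept their direction and side of the threshold or moved by less than the spread, 4 were no longer past it (all CG4210), 2 were newly past it, 21 moved and 0 reversed. List medians moved in 32 of 300 cases. The classes of promoter motifs were not run.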

Other observations

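The genes given here were chosen after their values were seen. CG9314 and CG18473 lie outside the naming rule, whereas kn, Adh and Adhr fall under it. kn, the neighbour of BEAF-32, had 0.38, 0.31 and 0.70 CPM in control, 1.19, 0.94 and 0.35 CPM in BEAF-32 RNAi, 4.00, 0.00 and 0.00 CPM in row RNAi and 3.54, 4.21 and 7.43 CPM in double RNAi. In the BEAF-32 RNAi libraries, CG9314 had 9, 6 and 15 counts against 0, 1 and 0 in control (unadjusted p = 0.00429, adjusted p = 0.776 by edgeR). CG9314 then had 13, 0 and 0 counts in row RNAi and 0, 5 and 5 in double RNAi. CG18473 had 86 counts in BEAF-32 RNAi replicate 3 and 6 and 13 in the other BEAF-32 RNAi libraries, against 2, 14 and 2 in control.

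Adh, alcohol dehydrogenase, and Adhr, its downstream neighbour, had the same counts in all libraries, so they are 1 measurement entered under both names. Their common level was 4.56, 5.31 and 8.69 CPM in control and 9.14, 12.2 and 20.5 CPM in BEAF-32 RNAi (log2 difference 1.17, SE 0.43, adjusted p = 0.848 by edgeR). Among the tested genes there were 23 such sets holding 46 genes, each set on a single strand and 0 across both strands.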
